A study of Gasterosteus aculeatus with 36 samples.

Results

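The genes described here are 8 genes of lymphocytes and the thymus, *rag1*, *rag2*, *dntt*, *lck*, *zap70*, *cd8a*, *ikzf1* and *tcf7*, out of the 24388 genes in the normalized read count table. They were chosen as a list of symbols and, like the other gene lists below, with earlier results of these data known. 7 of them were found by symbol, and *zap70* was found through its NCBI gene number as LOC120823693. RNA was sequenced from 36 whole threespine stickleback (*Gasterosteus aculeatus*), lab-reared and carrying no engineered allele as far as the labels say, with 3 females (XX) and 3 males (XY) at each of 6 stages. These were embryos at stage 17 (early somite formation), stage 20 (first pigment) and stage 23 (yolk sac circulation complete), and larvae at 0, 4 and 8 days post hatching (dph). Each library was 1 whole animal, so neither the thymus nor any blood cell was isolated. Counted reads per fish ranged from 8637205 to 52089185. All levels below are normalized read counts, which are reads divided by a size factor for each fish, and they were compared between stages and sexes within a gene but not between genes.

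T and B lymphocytes build their antigen receptors by cutting and rejoining gene segments, which is called V(D)J recombination. In jawed vertebrates T cells mature in the thymus, an organ of the pharyngeal region that blood-borne precursors colonize. The RAG1 and RAG2 proteins together cut the DNA at the receptor genes, and terminal deoxynucleotidyl transferase (the product of *dntt*) adds untemplated bases at the joins. LCK and ZAP70 are tyrosine kinases that pass on the signal of the T cell receptor, and CD8A is a chain of the coreceptor of cytotoxic T cells. Ikaros (*ikzf1*) and TCF1 (*tcf7*) are transcription factors needed for lymphocyte development, and in embryos they are also expressed outside lymphocytes.

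6 of the 8 genes were low in embryos and reached their highest stage mean in larvae, while *ikzf1* and *tcf7* were highest in the youngest embryos. *rag1*, *rag2* and *dntt* had their highest mean at 4 dph, and *lck*, *zap70* and *cd8a* at 8 dph. *dntt* rested on 64 reads in all 36 fish, had no read in 15 of them, and did not pass the filter on low counts, so it was not tested. The other 7 were tested with edgeR together with the 22168 genes that passed. *cd8a* rested on 123 reads and had none in 22 fish, so its values have a large counting error. From 0 to 8 dph all 7 tested genes rose, where 30.1% of all tested genes rose, 30.9% fell and 61.1% changed in either direction. *cd8a* is counted among these 7, but it had 1 read at 0 dph and passed the filter through the fish of 8 dph. Its rise was therefore fixed by the filter. In males alone *ikzf1* was not called over that period (log2 fold change 0.46, edgeR, adjusted p = 0.191). The median log2 fold change of the 7 genes over that period, *cd8a* included, was 2.38, against -0.01 over all tested genes. In whole animals more cells of a type and more RNA per cell cannot be told apart.

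**Figure D1:**
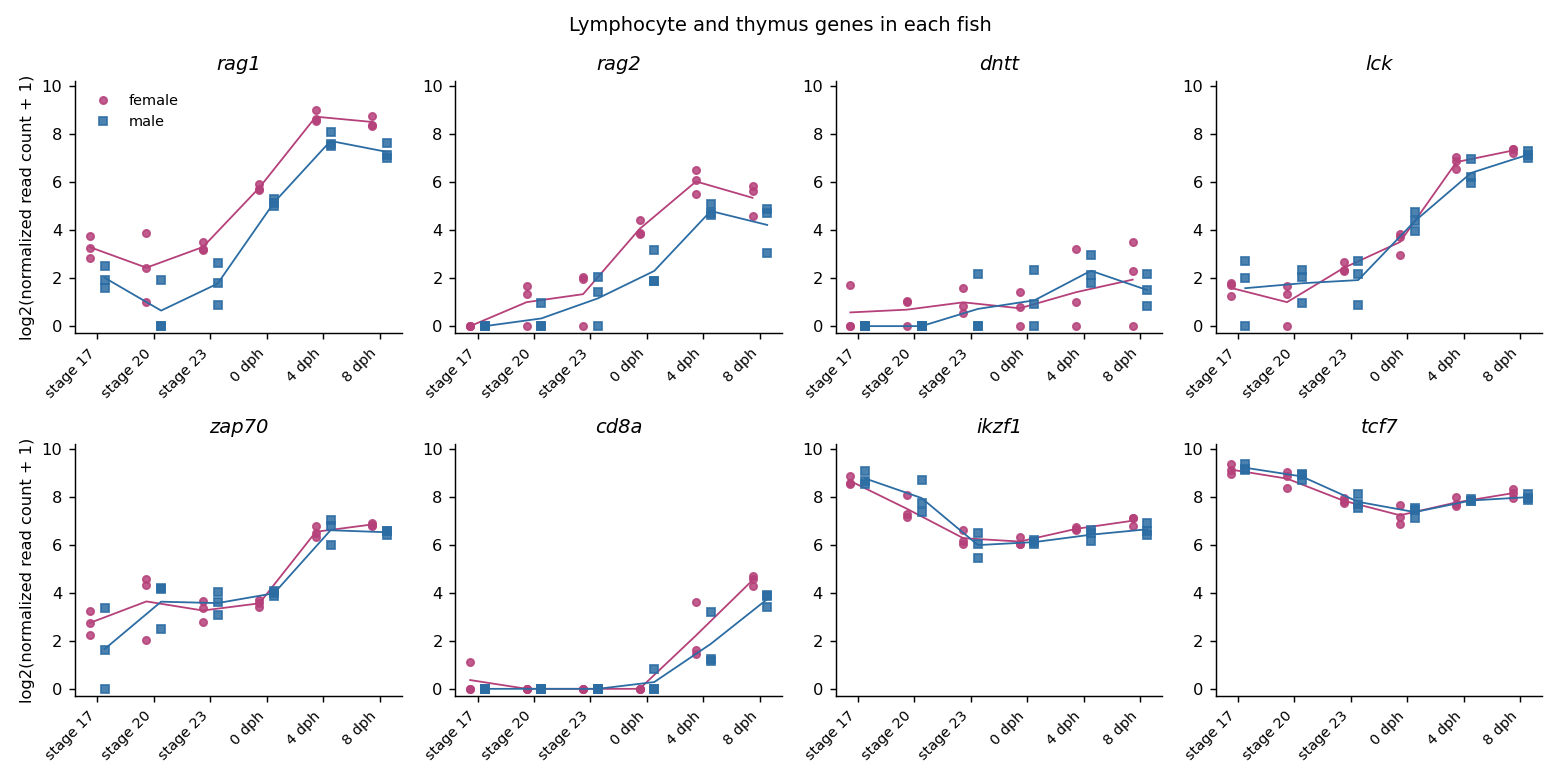
Normalized read counts of each gene, as log2(count + 1), in each of 3 females (circles) and 3 males (squares) at 6 stages. Lines join the means of the log2 values of each sex. *rag1*, *rag2*, *lck* and *zap70* are low up to stage 23 and high at 4 and 8 dph, and *ikzf1* and *tcf7* fall from stage 17. *cd8a* is near 0 up to 0 dph, low at 4 dph and higher at 8 dph, and *dntt* stays low throughout. Female *rag1* points lie above the male points at every stage but stage 20.

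*rag1*, the catalytic subunit of the recombinase, was low in embryos and rose over 2 consecutive steps. At stage 17 the females had 8.5, 12.5 and 6.23 normalized read counts and the males 4.67, 2.03 and 2.83. At stage 20 the females had 4.28, 1.01 and 13.8 and the males 2.84, 0 and 0. At stage 23 the females had 10.4, 7.97 and 8.18 and the males 0.851, 5.16 and 2.46. Every embryo was therefore below 14, and 2 males at stage 20 had no read. At 0 dph the females had 50.3, 58.7 and 51.3 and the males 38.4, 34.1 and 31.1. At 4 dph the females had 503, 393 and 374 and the males 188, 178 and 267. At 8 dph the females had 334, 323 and 433 and the males 139, 194 and 128. All 6 fish at 0 dph exceeded all embryos of stage 23, and all 6 fish at 4 dph exceeded all those at 0 dph. The log2 fold change was 3.07 ± 0.29 (SE) from stage 23 to 0 dph (edgeR, adjusted p = 3.63e-10) and 2.73 ± 0.23 from 0 to 4 dph (edgeR, adjusted p = 4.71e-11). From 4 to 8 dph it was -0.35 ± 0.21 (edgeR, adjusted p = 0.262), and the fish of these stages overlapped. The mean at 8 dph was 81.5% of that at 4 dph. From stage 23 to 4 dph its mean rose 54.3-fold.

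*rag2*, the other subunit of the recombinase, had no read in any fish at stage 17. It had 4 reads over the 6 fish of stage 20 and 21 reads over those of stage 23. At 0 dph the females had 13.8, 20.4 and 13.2 normalized read counts and the males 2.65, 2.62 and 7.96. At 4 days females had 88.8, 66.6 and 44.2 and the males 24.9, 23 and 32.5. At 8 days females had 48.5, 22.9 and 55.3 and the males 7.25, 25.3 and 28.3. The fish at 0 and 4 dph did not overlap, while those at 4 and 8 dph did. Those at stage 23 and 0 dph also overlapped, since the males with 2.65 and 2.62 lay below the highest fish of stage 23 (3.09). *rag2* rose by a log2 fold change of 2.09 ± 0.54 (SE) from stage 23 to 0 dph (edgeR, adjusted p = 0.00167) and of 2.21 ± 0.43 from 0 to 4 dph (edgeR, adjusted p = 0.000136). From 4 to 8 dph the change was -0.52 ± 0.39 (edgeR, adjusted p = 0.39). Against the limit of 3 reads that a count of 0 over the 6 fish of stage 17 allows, its level at 4 dph was at least 71.6-fold higher. With both sexes together *rag1* and *rag2* thus rose in the same 2 steps, from stage 23 to 0 dph and from 0 to 4 dph. The first of these steps of *rag2* was called in females alone (log2 fold change 2.79, edgeR, adjusted p = 0.00131). In males alone it was not (1.38, edgeR, adjusted p = 0.188). *rag2* passed the filter on low counts through larvae only, which favoured this first rise.

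*dntt*, which diversifies the joins, was near the limit of detection throughout. Summed over the 6 fish of a stage there were 2 reads at both stage 17 and stage 20 and 10 at stage 23. The larvae of 0, 4 and 8 dph had 9, 19 and 22 reads. At 4 dph the females had 8.33, 0 and 1.03 normalized read counts and the males 2.49, 3.43 and 6.78. At 8 dph the females had 3.93, 0 and 10.4 and the males 1.81, 3.49 and 0.787. A female at each of these stages had no read, so the larvae overlapped with the embryos. The summed level at 8 dph was 2.91 times that at 0 dph, with an exact 95% interval from 1.29 to 7.17 that covers counting error only.

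*lck*, the kinase that acts first at the T cell receptor, was at 5.60 normalized read counts or less in every fish up to stage 23, and 1 fish at stage 17 and 1 at stage 20 had no read. At 0 dph the females had 6.89, 11.9 and 13.2 and the males 19.9, 26.2 and 14.3. The females of 4 dph had 117, 132 and 92.4 and the males 61.1, 73.4 and 123. The females of 8 dph had 163, 145 and 167 and the males 125, 157 and 137. The fish at 0 dph lay above all those at stage 23 and below all those at 4 dph, while the fish at 4 and 8 dph overlapped, as did those of the 3 embryonic stages. The log2 fold change was 1.89 ± 0.32 (SE) from stage 23 to 0 dph (edgeR, adjusted p = 9.58e-06) and 2.67 ± 0.26 from 0 to 4 dph (edgeR, adjusted p = 1.65e-09). *lck* passed the filter on low counts through larvae only, which favoured the first of these rises. From 4 to 8 dph it was 0.58 ± 0.23 (edgeR, adjusted p = 0.0834), a step in which *lck* was called by DESeq2 and, by edgeR, after the male replicate 3 of 4 dph was left out.

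*zap70*, which acts after LCK, differed from *lck* in embryos. At stage 17 the females had 8.5, 5.69 and 3.74 normalized read counts and the males 9.34, 2.03 and 0. At stage 20 the females had 22.5, 19.2 and 3.07 and the males 17, 4.65 and 17. 4 of the 6 fish at stage 20 lay above every fish of stage 17 and the other 2 within their range. The log2 fold change was 1.46 ± 0.41 (SE, edgeR, adjusted p = 0.00278). At stage 23 the 6 fish ranged from 5.79 to 15.5 and at 0 dph from 9.52 to 15.9, and neither the step from stage 20 to 23 nor that from stage 23 to 0 dph was called (edgeR, adjusted p = 0.146 and 0.382). The females of 4 dph had 108, 79.7 and 89.4 and the males 110, 62.4 and 129. The females of 8 dph had 110, 111 and 120 and the males 84.3, 93.3 and 94.4. All larvae at 4 dph lay above all fish at 0 dph, with a log2 fold change of 2.85 ± 0.32 (edgeR, adjusted p = 1.46e-08). From 4 to 8 dph the change was 0.07 ± 0.28 (edgeR, adjusted p = 0.897).

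*cd8a*, the coreceptor chain, was the last of the tested genes to appear. It had 1 read at stage 17, none at stages 20 and 23, and 1 read at 0 dph, over the 6 fish of each stage. At 4 dph the females had 11.1, 1.75 and 2.05 normalized read counts and the males 1.25, 1.37 and 8.13, which are between 1 and 8 reads a fish. At 8 dph the females had 18.4, 22.9 and 25.0 and the males 13.6, 9.59 and 14.2, which are between 11 and 29 reads a fish. A female and a male at 4 dph stood above the other 4 fish of that stage, and of these the female exceeded the lowest fish at 8 dph. *cd8a* was called from 0 to 4 dph (edgeR, adjusted p = 0.00161), where the ratio of the summed levels was 25.7 with an exact 95% counting interval from 4.14 to 1064, since it rests on 1 read at 0 dph. From 4 to 8 dph the log2 fold change was 2.08 ± 0.51 (SE, edgeR, adjusted p = 0.00878). This call was lost with DESeq2 (log2 fold change 2.02, adjusted p = 0.0967). *cd8a* passed the filter on low counts through the fish of 8 dph, which favoured the call from 4 to 8 dph. Against the limit of 3 reads over the 6 fish of stage 23, the level at 8 dph was at least 56.2-fold higher. *cd8b*, the other chain of this coreceptor, was looked at after its values had been seen. Its mean was 2.83 ± 2.35 (SD, n = 6) normalized read counts at 0 dph, 10.1 ± 3.71 at 4 dph and 15.9 ± 1.07 at 8 dph.

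*ikzf1*, which encodes Ikaros, went the opposite way in embryos. At stage 17 the females had 368, 377 and 460 normalized read counts and the males 404, 535 and 371. At stage 20 the females had 142, 266 and 152 and the males 165, 414 and 214. By stage 23 the 6 fish lay between 42.5 and 96.9, below every fish of stage 20. *ikzf1* fell by 0.90 on the log2 scale from stage 17 to 20 (SE 0.19, edgeR, adjusted p = 0.000143) and by 1.67 from stage 20 to 23 (SE 0.20, edgeR, adjusted p = 2.24e-08). Its lowest stage mean was 68.7 ± 6.19 (SD, n = 6) at 0 dph, which was 16.4% of that at stage 17. At 8 dph the females had 138, 108 and 137 and the males 120, 84.6 and 95.2, all above the 6 fish at 0 dph. The log2 fold change from 0 to 8 dph was 0.63 ± 0.20 (SE, edgeR, adjusted p = 0.00815), but neither of the steps from 0 to 4 and from 4 to 8 dph was called (edgeR, adjusted p = 0.17 and 0.353).

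*tcf7*, which encodes TCF1, also fell in embryos, and went on falling up to hatching. Its levels over the 6 fish of a stage were 487 to 658 in stage 17, 328 to 518 in stage 20 and 184 to 276 in stage 23, and 116 to 198 at hatching. It fell by 0.34 (SE 0.12), 1.02 (SE 0.13) and 0.50 (SE 0.13) on the log2 scale in these 3 steps (edgeR, adjusted p = 0.0183, 3.75e-08 and 0.00125). The first of these was lost when the female replicate 3 or male replicate 2 of stage 17, or the female replicate 3 of stage 20, was left out (edgeR, adjusted p = 0.0625, 0.0641 and 0.0764). The larvae had 195 to 253 normalized read counts at 4 dph and 233 to 316 at 8 dph, and all 6 at 8 dph lay above all those at 0 dph. *tcf7* rose by a log2 fold change of 0.43 ± 0.13 (SE) from 0 to 4 dph (edgeR, adjusted p = 0.00776) and of 0.68 ± 0.13 from 0 to 8 dph (edgeR, adjusted p = 4.15e-05). Its mean at 8 dph was 46.5% of that at stage 17.

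Genes of other blood cells were measured over the same embryonic steps. Of 13 myeloid genes 4 rose and 7 fell from stage 17 to 20, and 1 rose and 8 fell from stage 20 to 23. Of 8 erythroid and thrombocyte genes 6 rose and 1 fell in the first of these steps, and 1 rose and 3 fell in the second. These counts stand beside the 64.3% and 58.3% of all tested genes that were called in either direction. The summed level of 13 myeloid genes was 23954 to 29941 normalized read counts over the fish of stage 17, 8559 to 13167 at stage 20 and 4277 to 6252 at stage 23. The summed level of 8 erythroid and thrombocyte genes was 1293 to 3162 at stage 17, 13802 to 21500 at stage 20 and 16060 to 19514 at stage 23, where it overlapped with that of stage 20. Each sum follows the genes of its list with the most reads. The part of these blood cells in the falls of *ikzf1* and *tcf7* was not tested.

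**Figure D2:**
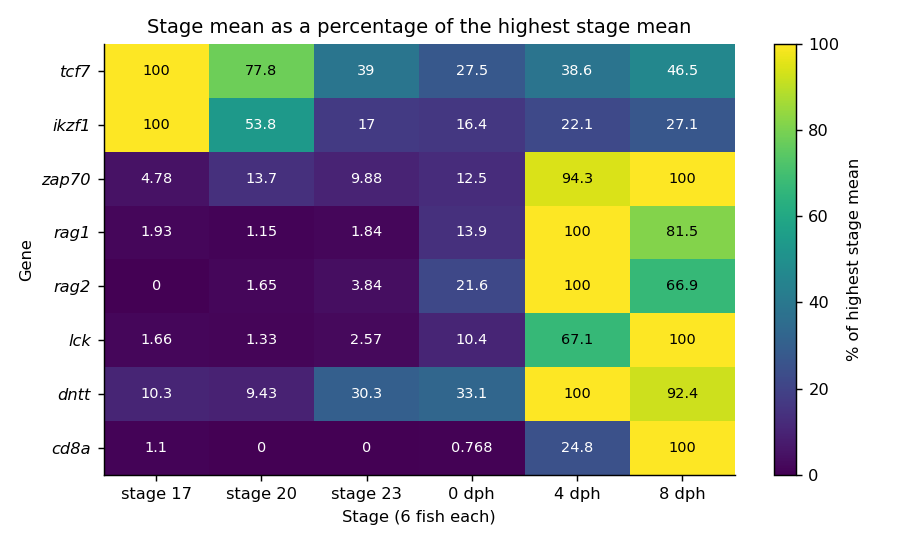
Mean normalized read count of 6 fish at each stage, as a percentage of the highest stage mean of that gene (colour and printed value). At 0 dph *rag1* is at 13.9%, *rag2* at 21.6%, *lck* at 10.4%, *zap70* at 12.5% and *cd8a* at 0.768% of their highest mean, while *ikzf1* and *tcf7* have their highest mean at stage 17 and their lowest at 0 dph.

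The stage of onset was taken as the first stage from which every fish had at least 3 reads. *ikzf1* and *tcf7* were on from stage 17, *zap70* from stage 23, *rag1* and *lck* from 0 dph, *rag2* from 4 dph and *cd8a* from 8 dph. *dntt* did not reach this at any stage. With at least 1 read in every fish, the onset was stage 20 for *zap70*, stage 23 for *rag1* and *lck*, 0 dph for *rag2* and 4 dph for *cd8a*. With at least 3 reads in 4 of 6 fish it was stage 17 for *zap70*, stage 23 for *rag1* and *lck* and 0 dph for *rag2*. *rag1* also met each of these 2 other limits at stage 17 but not at stage 20. Its mean was no higher at stage 23 (5.84) than at stage 17 (6.13), so no rise in level lies behind an onset at stage 23. Reads were not scaled by depth in this rule, so a shallow library can delay an onset and a deep one can advance it. *zap70* had a higher mean at stage 20 (14.0) than at stage 23 (10.1). It missed the limit at stage 20 through the female replicate 3, which had 2 reads.

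**Figure D3:**
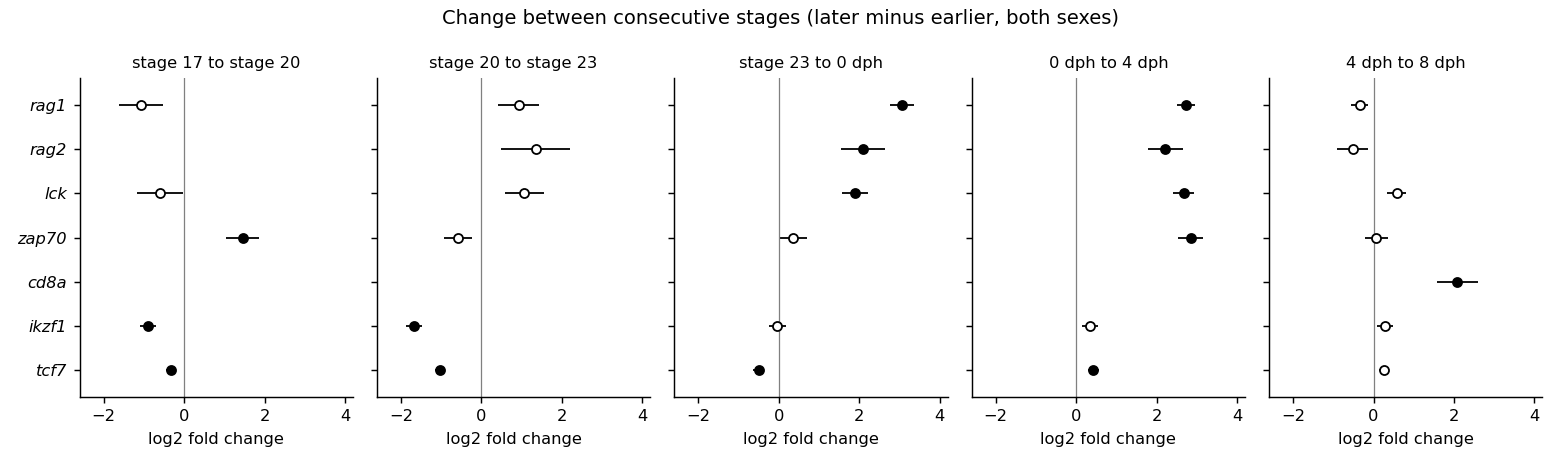
Log2 fold change (later minus earlier stage, both sexes, edgeR) of the 7 tested genes in 5 consecutive steps, with bars of 1 standard error. Filled points had an adjusted p under 0.05, and points are left out where the earlier stage had 3 or fewer reads (4 steps of *cd8a* and the first of *rag2*). *rag1*, *rag2* and *lck* rose in both steps from stage 23 to 4 dph, *zap70* rose from stage 17 to 20 and from 0 to 4 dph, and *ikzf1* and *tcf7* fell in the first 2 steps.

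Counted by step, 3 of the 7 tested genes were called from stage 17 to 20 (*zap70* higher, *ikzf1* and *tcf7* lower), where 64.3% of all tested genes were called. From stage 20 to 23 *ikzf1* and *tcf7* were called, both lower, against 58.3% of all genes. From stage 23 to 0 dph 4 were called (*rag1*, *rag2* and *lck* higher, *tcf7* lower), against 58.4%. *rag2* (at most 8 reads in an embryo) and *lck* (at most 11) passed the filter through larvae only. Their rise from embryos to larvae was therefore favoured by the filter. From 0 to 4 dph 6 rose, against 24.0% of all genes that rose and 48.4% called in either direction. The median log2 fold change of the 7 was 2.67 against -0.01 over all genes. *cd8a*, which passed the filter through the fish of 8 dph, is among these 6. From 4 to 8 dph only *cd8a* was called, against 17.9% of all genes. The filter favoured this call, since it let *cd8a* in through the fish of 8 dph. Males alone gave 2 calls from stage 23 to 0 dph (*rag1* and *lck*, against 46.5% of all genes). From 4 to 8 dph neither the females (5.39% of all genes) nor the males (6.18%) gave a call. An unadjusted p under 0.05 was found for 2 of the 7 genes in each sex (edgeR). Of all 22168 tested genes, 4130 in females and 4764 in males had one. Apart from the first 4 days after hatching and the period up to 8 dph, the share called among these genes was therefore near or below that of all genes. Leaving out the female replicate 3 of stage 20 raised the count from stage 20 to 23 to 4, with *rag1* higher and *zap70* lower as the added calls.

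Other T cell genes were followed over the same larval period, in which 30.1% of all tested genes rose and 30.9% fell. Since the lists were chosen with earlier results of these data known, their counts are descriptions. Of 19 tested genes of T cell surface proteins and signalling, 15 rose and 1 fell from 0 to 8 dph, with a median log2 fold change of 1.48 against -0.01 over all tested genes. The largest called changes were those of *cd4-1*, a coreceptor of helper T cells, with 3.45 ± 0.48 (SE), of *cd247l*, related to the zeta chain of the receptor complex, with 3.15 ± 0.34, and of *cd5*, a surface protein of T cells, with 2.56 ± 0.49 (edgeR, adjusted p = 4.03e-07, 3.92e-09 and 5.02e-05). The mean of *cd4-1* went from 3.59 to 41.9 normalized read counts and that of *cd247l* from 5.89 to 50.4. That of *cd5* went from 3.09 to 19.1. All 3 were low at 0 dph. Whether they passed the filter on low counts only through older larvae was not checked. If they did, the filter favoured their rises. Of 24 tested transcription factors and other regulators of T cells, 12 rose and 3 fell, with a median of 0.25. The largest changes were 1.78 ± 0.17 for *runx3*, 1.70 ± 0.20 for *rorc* and 1.62 ± 0.25 for *eomesb*. These factors also act in bone, nerve and other tissues. Among 6 paralogs of *ikzf1* and *tcf7* only *tcf7l2* was called, with 0.40 ± 0.10 (edgeR, adjusted p = 0.000849).

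A list of genes of the thymic epithelium, the tissue in which T cells mature, held 15 tested genes, measured in whole animals. Of these 9 rose and 3 fell from 0 to 8 dph, where 30.1% of all tested genes rose and 30.9% fell. Their median log2 fold change was 0.49 against -0.01 over all tested genes. *foxn1*, the transcription factor that defines thymic epithelial cells and is also active in skin, had a mean of 0.708, 0.857 and 3.38 normalized read counts at stages 17, 20 and 23, with no read in 5 of 6 fish at stage 17. Its mean was 19.9 ± 9.40 (SD, n = 6) at 0 dph, 89.0 ± 14.7 at 4 dph and 87.9 ± 14.2 at 8 dph. It rose by a log2 fold change of 2.53 ± 0.41 (SE) from stage 23 to 0 dph and of 2.10 ± 0.33 from 0 to 4 dph (edgeR, adjusted p = 6.21e-06 and 8.11e-06). *foxn1* thus rose in the steps in which *rag1* and *rag2* rose, and from 4 to 8 dph its change was -0.03 ± 0.31 (edgeR, adjusted p = 0.962). It passed the filter on low counts through larvae only, which favoured the rise from stage 23 to 0 dph. *ccl25b*, a chemokine of a family that attracts precursors to the thymus and also acts in the gut, rose by 1.42 ± 0.18 from 0 to 8 dph (edgeR, adjusted p = 8.83e-08). *aire*, which drives the display of self antigens in thymic epithelium, went the other way, from a mean of 15.4 ± 3.95 (SD, n = 6) at 0 dph to 7.00 ± 2.88 at 8 dph (log2 fold change -1.22 ± 0.35, edgeR, adjusted p = 0.00309).

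The repair factors that join the ends cut by RAG1 and RAG2 act in every cell. The list of these factors also held genes of DNA-bending proteins, which are not repair factors. Of its 14 tested genes, 2 rose and 8 fell from 0 to 8 dph, where 30.1% of all genes rose and 30.9% fell, with a median of -0.22. The largest changes were falls of 1.08 (SE 0.11) in *hmgb2a* and 0.79 (SE 0.09) in *hmgb1b*, DNA-bending proteins, and of 1.0 (SE 0.13) in *dclre1c*, the nuclease Artemis. All these are log2 fold changes, with adjusted p of 1.38e-09, 6.3e-09 and 8.13e-08 by edgeR.

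**Figure D4:**
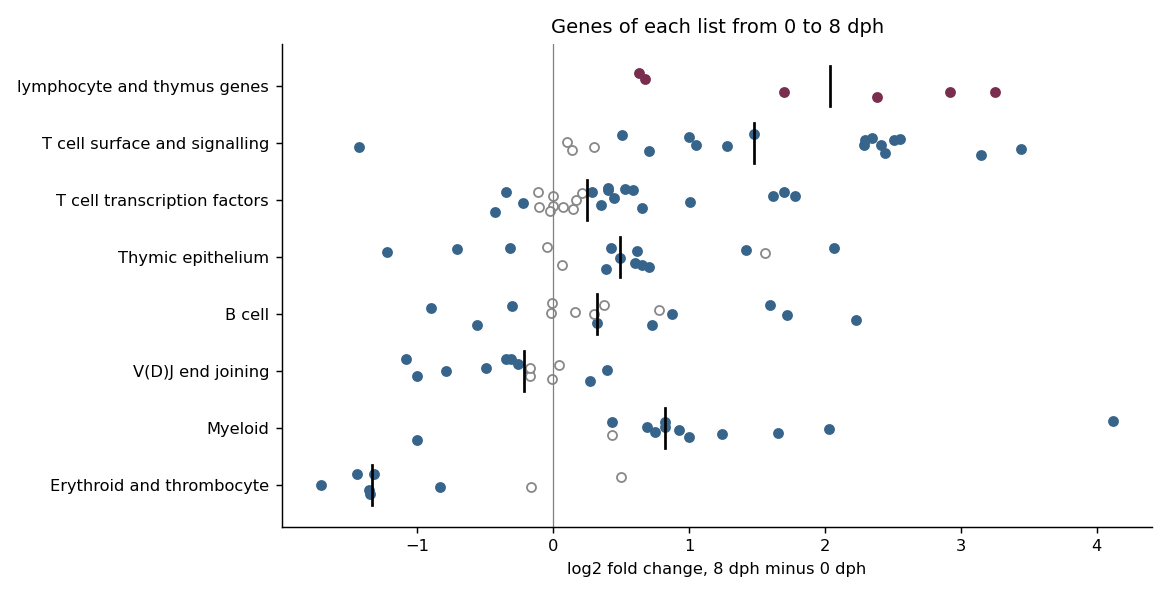
Log2 fold change from 0 to 8 dph (edgeR, both sexes) of the tested genes of each list, 1 point a gene. Filled points had an adjusted p under 0.05, black lines are medians over the points drawn, and *cd8a* is left out of the top row because it had 1 read at 0 dph. The other 6 lymphocyte and thymus genes are all filled and above 0, most T cell surface and myeloid genes are above 0, and the erythroid and thrombocyte genes that passed are all below 0.

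Genes of other blood lineages are read against the same shares of all tested genes, 30.1% that rose and 30.9% that fell from 0 to 8 dph. Of 13 myeloid genes 11 rose and 1 fell (median 0.83), led by *lyz* (lysozyme, 4.12 ± 0.44), *mpeg1.1* (a macrophage perforin, 2.03 ± 0.19) and *marco* (a scavenger receptor, 1.66 ± 0.20). Their summed level was 2560 to 3171 normalized read counts over the fish at 0 dph, 3721 to 5093 at 4 dph and 4160 to 8755 at 8 dph. Of 15 tested B cell genes 6 rose and 3 fell (median 0.33), which is near those shares, led by *irf4a* with 2.23 ± 0.25, *blnk* with 1.72 ± 0.21 and *irf8* with 1.60 ± 0.15. Both *irf4a* and *irf8* also act in other immune cells. The summed level of the B cell genes was 4195 to 5228 at 0 dph, 4094 to 4772 at 4 dph and 4504 to 4960 at 8 dph. Of 8 erythroid and thrombocyte genes none rose and 6 fell (median -1.33), led by falls of 1.70 (SE 0.14) in *alas2*, which makes heme, of 1.4 (SE 0.44) in *gp9*, a platelet glycoprotein, and of 1.35 (SE 0.32) in *klf1*, an erythroid factor. Their summed level was 5845 to 9212 at 0 dph, 1473 to 1921 at 4 dph and 2561 to 5005 at 8 dph. Such sums follow the genes with the most reads. At 0 dph *alas2* had a mean of 3839 and *gp9* one of 13.9. The part of these lineages in the rise of the 7 genes was not tested.

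*rag1* and *rag2* were the genes called between the sexes, both lower in males. For *rag1* all 3 females lay above all 3 males in 5 of the 6 stages, and the sexes overlapped only at stage 20. At 4 dph its male minus female log2 fold change was -1.02 ± 0.29 (SE, edgeR, adjusted p = 0.0348) and at 8 dph -1.26 ± 0.30 (edgeR, adjusted p = 0.00464). Of the 7 tested genes *rag1* was the only one called at either stage, where 4.73% and 4.83% of all genes were called and 3.04% and 3.14% were lower in males. The call at 4 dph was lost when any of 5 of the 6 libraries of that stage was left out, with adjusted p between 0.0538 and 0.233 in edgeR. The call at 8 dph was lost without the female replicate 3 of that stage (-1.11, edgeR, adjusted p = 0.0528). Over all stages, in a model of stage plus sex, *rag1* was lower in males by a log2 fold change of -1.13 ± 0.16 (edgeR, adjusted p = 5.49e-07) and stayed called without any 1 of the 36 libraries. *rag2* was lower by -1.22 ± 0.29 (edgeR, adjusted p = 0.00426), and all females lay above all males at 0 and 4 dph. These were 2 of 7 genes, where 6.13% of all genes were called over all stages and 4.04% were lower in males.

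In the other 4 single stages no tested gene was called by edgeR, where 4.42%, 4.63%, 4.92% and 4.73% of all genes were called at stages 17, 20 and 23 and at 0 dph. At an unadjusted p under 0.05 there was 1 gene at each of stages 17, 20 and 23, in each case *rag1*, and 2 at 0 dph, *rag2* and *lck*. Of all 22168 tested genes 2121, 1968 and 1763 had one at stages 17, 20 and 23, and 1769 at 0 dph. DESeq2 called *rag1* at stage 23 and none at the other 3 stages. *lck* at 0 dph was higher in all 3 males than in all 3 females, with 0.90 ± 0.40 as the male minus female log2 fold change (edgeR, adjusted p = 0.464). The sexes also did not overlap for *zap70* at 0 dph (males higher) and at 8 dph (females higher) and for *cd8a* at 8 dph (females higher), without a call. The share of all genes whose sexes do not overlap at a stage was not counted. These cases, and those of *rag1* and *rag2* above, are therefore descriptions. Over all stages the difference was 0.04 ± 0.19 for *lck*, 0.01 ± 0.17 for *zap70*, -0.05 ± 0.12 for *ikzf1*, 0.00 ± 0.07 for *tcf7* and -0.64 ± 0.41 for *cd8a*, none of them called. In the test of whether the sex difference changed between stages, none of the 7 genes was called by edgeR or DESeq2 and none had an unadjusted p under 0.05. edgeR called 0.0451% of all genes in that test, and 837 of the 22168 genes had an unadjusted p under 0.05.

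The size of the difference in *rag1* and *rag2* was set beside that of genes of chromosome 19, the X chromosome, of which females carry an additional copy. The study's gene annotation was available here for only part of the genes. Within that part it places 95 genes there whose mean was 10 normalized read counts or more, so these are not all the expressed genes of the X. The median over these of the mean in females divided by that in males was between 1.90 and 1.98 in the 6 stages and 1.92 over all stages. 86 of the 95 (90.5%) were called lower in males over all stages, with a median log2 fold change of -0.97. The female to male ratio of *rag1* was 2.86 in the youngest embryos and 3.14 in those of stage 23, then 1.55 at hatching, 2.0 at 4 dph and 2.36 at 8 dph, and it was 2.13 over all stages. That of *rag2* was 3.58 at 0 dph, 2.47 at 4 dph, 2.08 at 8 dph and 2.39 over all stages. The chromosome of *rag1* and *rag2* is not given in that part of the annotation, and whether they follow from the number of X copies was not tested. *cd8a* is placed on chromosome 17 by that annotation.

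**Figure D5:**
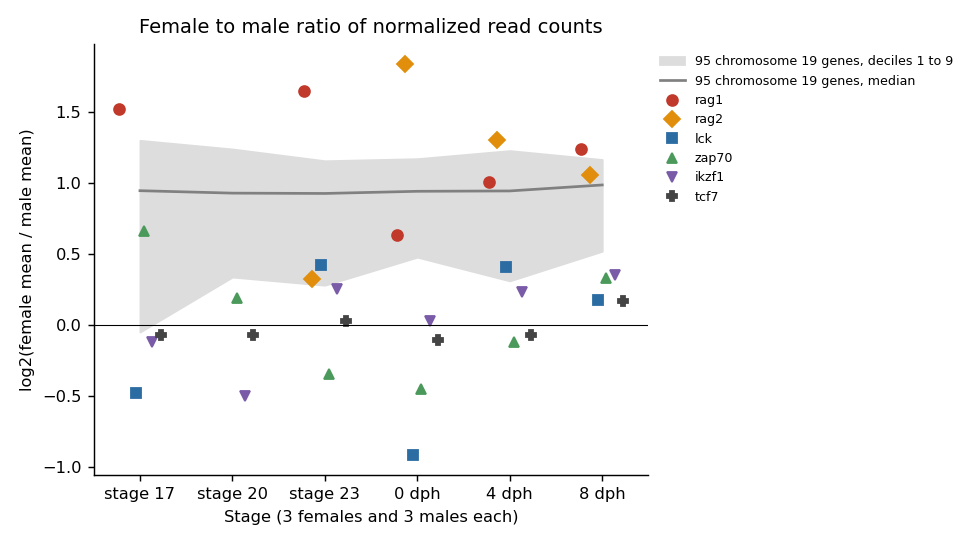
Mean normalized read count in females divided by that in males, as a log2 ratio, at each stage (3 females and 3 males). The grey line is the median and the band the first to ninth decile of 95 genes of chromosome 19, symbols are genes, and ratios are left out where either sex had 3 or fewer reads. *rag1* and *rag2* lie above 0 at every stage drawn, from 0.63 to 1.65 for *rag1*, and *ikzf1* and *tcf7* lie between -0.11 and 0.35 in larvae.

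The other listed genes called between the sexes are read against the 4.42% to 4.92% of all tested genes called in a single stage and the 6.13% called over all stages. *kitlga*, a ligand for blood and pigment cell precursors, and *lmo2*, a factor of early blood cells, were lower in males at every stage and over all stages, by log2 fold changes of -0.98 ± 0.08 and -0.97 ± 0.07 (SE, edgeR, adjusted p = 2.78e-12 and 7.48e-14). The median of the 95 chromosome 19 genes over all stages was -0.97. The chromosome of *kitlga* and *lmo2* is not given in the part of the study's gene annotation available here, and whether they follow from the number of X copies was not tested. *spi1a*, a myeloid factor, was lower over all stages by -0.72 ± 0.16 (edgeR, adjusted p = 0.00117). *ccr7*, a chemokine receptor of T cells, was lower in males at 4 dph only, by -1.93 ± 0.56 (edgeR, adjusted p = 0.041). At 8 dph *alas2* was lower by -0.70 ± 0.20 and *paxx*, an end joining factor, was higher by 0.83 ± 0.20 (edgeR, adjusted p = 0.0278 and 0.00747). None of the 19 T cell surface genes was called over all stages.

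The 7 genes did not all vary together. Over the 36 fish, Pearson's r of log2(normalized read count + 1) was 0.92 between *rag1* and *rag2*, 0.92 between *rag1* and *lck*, 0.87 between *lck* and *zap70* and 0.92 between *ikzf1* and *tcf7*, and it was negative between either of the last pair and each of the other 4. All these fish share the change with stage, so r was also taken over deviations from the mean of each stage and sex. In the 18 larvae this r was 0.35 between *rag1* and *rag2*, 0.57 between *rag1* and *lck* and 0.61 between *rag1* and *zap70*. It was 0.26 both between *lck* and *zap70* and between *ikzf1* and *tcf7*. Over all 36 fish the r of deviations for these pairs, in the same order, was 0.26, 0.25, -0.04, 0.29 and 0.44. These values are descriptions, and *rag2* in single fish rests on 2 to 76 reads in larvae.

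Among 21770 genes whose mean was 5 normalized read counts or more, 245 had a higher r with *rag1* than *rag2* had. The closest to *rag1* were LOC120809713 (0.96), LOC120808857 (0.95) and *guca1b* (0.95). The closest to *rag2* were *nlrc5*, *ehf* and *soul5* (0.94 each). Those closest to *lck* were LOC120810926 (0.98), LOC120830164 (0.97) and *ampd1* (0.97), and those closest to *zap70* were *mlip*, *pear1* (both 0.93) and *xkr5b* (0.92). For *ikzf1* they were *etv5a* (0.95), LOC120825367 (0.94) and *ndp* (0.94), and for *tcf7* they were *dab2* (0.97), *skiv2l* (0.96) and *erfl3* (0.96). *tcf7* itself ranked 14 among the genes closest to *ikzf1*.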

How the data were processed

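RNA of 36 whole fish was sequenced as stranded poly(A) libraries (150 bp paired ends, all libraries pooled over both lanes). The authors trimmed reads with Trimmomatic 0.39, aligned them to GAculeatus_UGA_version5 with HISAT, counted them per gene with HTSeq 2.0.2 with strand, and deposited whole-number counts for 25258 genes. They also deposited a normalized signal for 24388 genes, which was checked to be the counts divided by 1 size factor per fish (DESeq2 1.44.0), for genes with at least 10 reads in all.

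Stage, sex and replicate came from the labels, and each fish was a separate animal, though clutch is not given in the sources used here. Counts were tested with edgeR 4.0.16 (R 4.3.3, TMM, filterByExpr, glmQLFit, glmQLFTest) with 1 factor of stage and sex over all 36 fish, which is the factor the study used. Benjamini-Hochberg adjustment ran over 22168 genes, and an adjusted p under 0.05 was called. The sex difference over all stages came from stage plus sex. The main tests did not pair fish by replicate number, and no label says that the numbers pair males and females. At 0 dph all 3 same-number pairs correlated above 0.1. A replicate block, used only as an alternative, took the numbers as pairs within every stage when the sexes were compared. The steps were tested on simulated data. Intervals and floors (3 reads) cover counting error only. Alternatives were DESeq2 1.42.0, its size factors in edgeR, no filterByExpr, each library left out, a replicate block, each sex alone and other onset limits.

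The members and gene lists were chosen with earlier results of these data known. Named genes were all 8 members, the called genes with the 3 largest changes from 0 to 8 dph of each other list, list genes called between the sexes, and the 3 genes most correlated with each member with a mean of at least 5. Symbols of unnamed rows came from NCBI gene numbers in a table of assembly fGasAcu3.hap1.1, whose coordinates were not used. Chromosomes came from the study's gene annotation, which was available here for only part of the genes. No sequences of these genes were used here. The count table gives no gene lengths, so levels were not compared between genes.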

Additional observations from a re-analysis of the deposited data

How the results depend on the processing

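Of the counts of called genes in 14 comparisons, none reversed, and DESeq2 size factors in edgeR and omission of filterByExpr left all within 1.5 times. Taken alone, males gave 2 calls in place of 4 from stage 23 to 0 dph (*rag2* 1.38, adjusted p = 0.188, and *tcf7* -0.43, adjusted p = 0.0524, were lost), and they lost *cd8a* (2.89, adjusted p = 0.0903) and *tcf7* (0.41, adjusted p = 0.0911) from 0 to 4 dph and *ikzf1* (0.46, adjusted p = 0.191) from 0 to 8 dph. Females alone lost *tcf7* from 0 to 4 dph (0.44, adjusted p = 0.0626), and neither sex alone called *tcf7* from stage 17 to 20 (-0.33, adjusted p = 0.112, in females and -0.35, adjusted p = 0.103, in males). Females alone added *lck* from stage 20 to 23 (1.79, adjusted p = 0.0429). Females and males each gave 0 in place of 1 from 4 to 8 dph (*cd8a* 2.26, adjusted p = 0.0731, and 1.91, adjusted p = 0.145). A difference between the sexes in these steps was not called in the interaction test. DESeq2 gave 1 call between the sexes at stage 23 (*rag1*) in place of 0. The mean correlation of the deviations of a male and a female with the same replicate number was 0.0953 (-0.109 to 0.496, above 0.1 in 7 of 18 pairs), against -0.0465 for other numbers (above 0.1 in 3 of 36 pairs). At 0 dph all 3 same-number pairs were above 0.1 (0.257 to 0.496), which was the case at no other stage. With the replicate block, the count between the sexes at 4 dph was 0 in place of 1 (*rag1* -1.03, adjusted p = 0.0516), and no other call changed, those at 0 dph included. When each library was left out in turn, the counts ranged from 2 to 4 for stage 17 to 20 and stage 20 to 23 and from 1 to 2 for 4 to 8 dph, and from 0 to 1 between the sexes at stages 20 and 23 and at 4 and 8 dph. The added calls were *rag1* at stage 20 (without female replicate 2 or male replicate 1) and at stage 23 (without male replicate 2). The counts of 4 (stage 23 to 0 dph), 6 (0 to 4 dph), 7 (0 to 8 dph) and 2 (sexes over all stages) did not change. The number of stages from onset to 8 dph, with at least 1 read in each fish, was 4 for *rag1* and *lck* (3 with the limit of 3 reads), 3 for *rag2* (2), 5 for *zap70* (4) and 2 for *cd8a* (1). With at least 10 reads it was 0 for *rag2*. With 4 of 6 fish it was 4 for *rag1* and *lck*, 3 for *rag2* and 6 for *zap70*. Counts scaled by TMM moved the ratio of the means at 8 and 0 dph by less than the spread between fish in each of the 7 genes compared (all but *cd8a*).

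Depth limited *dntt* (at most 12 reads a fish), *cd8a* (at most 29) and *rag2* in embryos (at most 8). All libraries were whole animals, so a change within the thymus cannot be separated from the other tissues. Each group had 3 fish.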
